A study of Homo sapiens with 16 samples.

Results

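The integrated stress response and the unfolded protein response were examined through 34 named genes of the 23709 genes counted in the deposited files. The members were chosen by gene name, and all 34 were found. They comprised 18 genes of the ATF4 arm (ATF4, the genes it is known to switch on and its partner factors), 4 stress sensors (ERN1, ATF6, EIF2AK3 and EIF2AK4) and 12 genes of the XBP1/ATF6 arm, which holds XBP1 and genes for folding and degradation in the endoplasmic reticulum (ER).

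The ER membrane carries sensor proteins that respond to unfolded proteins. EIF2AK3 (PERK) and the amino acid sensor EIF2AK4 (GCN2) phosphorylate the translation factor eIF2, which lowers general protein synthesis but favours translation of ATF4, whose targets serve amino acid uptake and synthesis, redox balance and, through DDIT3 (CHOP), cell death. ERN1 (IRE1) splices the XBP1 transcript, ATF6 is released from the membrane by cleavage, and the resulting factors switch on ER chaperones and the machinery that degrades misfolded proteins. Much of this signalling acts on translation, splicing or protein cleavage, which gene-level counts with merged splice variants do not show.

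RNA was sequenced from H1299, a human non-small cell lung carcinoma line, and from HBE, labelled as a lung epithelial line, both at passage 15 to 18. H1299 cells had received either the empty pCMV-N-Flag plasmid (vector) or the same plasmid carrying FLII by lipid transfection, and HBE cells carried either lentiviral short hairpin RNA against FLII as a stable knockdown or the control called NC. FLII (flightless I) is an actin-binding protein of the gelsolin family. Each of these 4 cell groups gave 1 library of mRNA, of RNA pelleted with ribosome-nascent chain complexes after 15 min of cycloheximide (RNC), of cytosolic RNA and of nuclear RNA, 16 in all. With 1 library per group, a fold compares 2 libraries and has no replicate check; no p-value is given, and the 95% intervals reflect counting error alone. A call, higher or lower, required a 2-fold difference and an interval without 1, and was made among genes with at least 20 reads over the 2 libraries. Fold means a log2 fold after TMM scaling throughout, and level means RPKM, the deposited reads per kilobase of gene, scaled by the authors to library depth. Levels in a fraction are listed in the order H1299 vector, H1299 FLII overexpression, HBE NC and HBE FLII knockdown.

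Libraries held 5943676 to 8344359 reads in mRNA, 5914489 to 9259569 in cytosol, 6295282 to 8201848 in nuclear RNA and 26711771 to 38514467 in RNC, of which the members took 0.147% to 1.81%. FLII followed its labels in mRNA, cytosol and nuclear RNA (folds of 2.14, 1.66 and 1.86 in H1299 and −2.58, −2.94 and −2.98 in HBE) but not in RNC (−4.21 and 0.07). Outside RNC the summed level of 8 epithelial markers was 2823 to 4868 RPKM in HBE and 4.24 to 65.6 RPKM in H1299, and that of 3 mesenchymal markers was 1.66 to 10.8 and 668 to 2962 RPKM. The highest epithelial sum in H1299, 65.6 RPKM, was in the FLII overexpression cytosol library. In RNC, the library labelled H1299 FLII overexpression held 3000 RPKM of epithelial and 26.5 RPKM of mesenchymal markers, and the library labelled HBE FLII knockdown held 18.7 and 146 RPKM. These RNC libraries went against their line labels, so RNC values are given below by label only. The library labelled H1299 vector held 3.81 and 69.9 RPKM. That labelled HBE NC held 843 and 208 RPKM, a mesenchymal sum above the 1.66 to 10.8 RPKM of the other HBE libraries.

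The promoters of the members were searched for motifs, short runs of letters that factors of the arms are known to bind, because these differ between the arms. RefSeq promoters (GRCh38.p14, 250 bases before to 50 after the start, both strands) were at hand for 31 of 34 members; PSPH, SLC7A11 and NUPR1 had none in the table. The CARE core bound by ATF4 with its C/EBP partners (TGATGNAA) was found in 3 of 15 ATF4-arm promoters (CHAC1, ASNS and SLC3A2) and 1 of 12 of the XBP1/ATF6 arm (HERPUD1), against 3.67% of 27305 promoters. The ER stress element ERSE (CCAAT and CCACG with 9 bases between them), a site of ATF6 with NF-Y, was found in XBP1, CALR, CANX and CRELD2, 4 of 12 in that arm and 0 of 15 in the ATF4 arm, against 0.0806% of all promoters. ERSE-II (ATTGG and CCACG with 1 base between them) was found in HERPUD1 and SDF2L1, 2 of 12, against 0.0549%. The core of the unfolded protein response element (TGACGTGG) matched no member and 0.795% of all promoters. Members and motifs were both chosen as known for these arms, so a share above that of all promoters can follow from the choice and is no test of the arms. A match describes the letters and is not a measured binding site, and no match says only that the letters are not in the window. Stretches of the promoters with matches before the start are shown 5′ to 3′ on the gene's strand, with the matched letters in capitals; a match on the opposite strand appears as its reverse complement. CHAC1, a glutathione-degrading enzyme, and ASNS, asparagine synthetase, carry the CARE core (chr15:40953237-40953294, forward strand; chr7:97872444-97872501, reverse strand):
CHAC1: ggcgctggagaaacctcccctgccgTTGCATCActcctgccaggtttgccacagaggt
ASNS: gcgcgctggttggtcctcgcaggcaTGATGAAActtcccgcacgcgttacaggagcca
HERPUD1, an ER membrane protein of the degradation machinery, carries both a CARE core and an ERSE-II (chr16:56931941-56932060, forward strand):
HERPUD1: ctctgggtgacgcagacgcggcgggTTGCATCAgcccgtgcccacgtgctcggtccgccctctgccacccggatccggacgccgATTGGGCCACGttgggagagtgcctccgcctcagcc
XBP1 (chr22:28800578-28800646, reverse strand), the lectin chaperones CALR (chr19:12938359-12938427, forward strand) and CANX (chr5:179698753-179698821, forward strand) and the secreted ER protein CRELD2 (chr22:49918529-49918597, forward strand) carry the ERSE:
XBP1: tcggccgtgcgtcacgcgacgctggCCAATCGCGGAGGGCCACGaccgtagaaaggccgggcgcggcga
CALR: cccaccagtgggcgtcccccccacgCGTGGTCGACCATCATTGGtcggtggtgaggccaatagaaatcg
CANX: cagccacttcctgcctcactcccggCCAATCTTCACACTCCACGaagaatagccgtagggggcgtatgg
CRELD2: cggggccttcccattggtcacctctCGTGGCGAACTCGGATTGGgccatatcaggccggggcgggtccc
SDF2L1, an ER protein that works with the chaperone BiP, carries the ERSE-II (chr22:21642089-21642149, forward strand):
SDF2L1: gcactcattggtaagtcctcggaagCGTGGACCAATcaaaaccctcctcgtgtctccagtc

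The lines differed in many members, in both directions within the ATF4 arm and mostly toward HBE in the XBP1/ATF6 arm in mRNA and nuclear RNA; in cytosol the balance depended on the scaling. The controls compared were a plasmid transfection in H1299 and NC cells in HBE, so that line and manipulation cannot be told apart. Of 34 members, 4 were higher and 14 lower in H1299 vector than in HBE NC mRNA, where 43.6% of all genes were called (21.2% higher, 22.4% lower). In cytosol 7 were higher and 15 lower of 32 (all genes 48.9%, 26.7% higher and 22.2% lower), and in nuclear RNA 4 and 14 of 33 (45.3%, 22.3% and 23.1%). With total counts the members counted 6 higher and 11 lower in mRNA, 9 and 7 in cytosol and 6 and 10 in nuclear RNA (all genes 26.9% and 18.1%, 38.2% and 15.1%, 27.4% and 18.6%). With RPKM they counted 4 and 9, 5 and 6, and 5 and 9, where the medians over all genes were 0.23, 0.42 and 0.17. The larger number of lower calls was thus found under each scaling in mRNA and nuclear RNA, while in cytosol it turned with total counts. In all 3 fractions, 3 of 32 members were higher in H1299 (DDIT3, CHAC1 and ASNS) and 9 were lower (CEBPB, SLC7A5, SLC3A2, NUPR1, SYVN1, EDEM1, PDIA4, CRELD2 and MANF), against 13.1% and 13.9% of all genes.

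**Figure D1:**
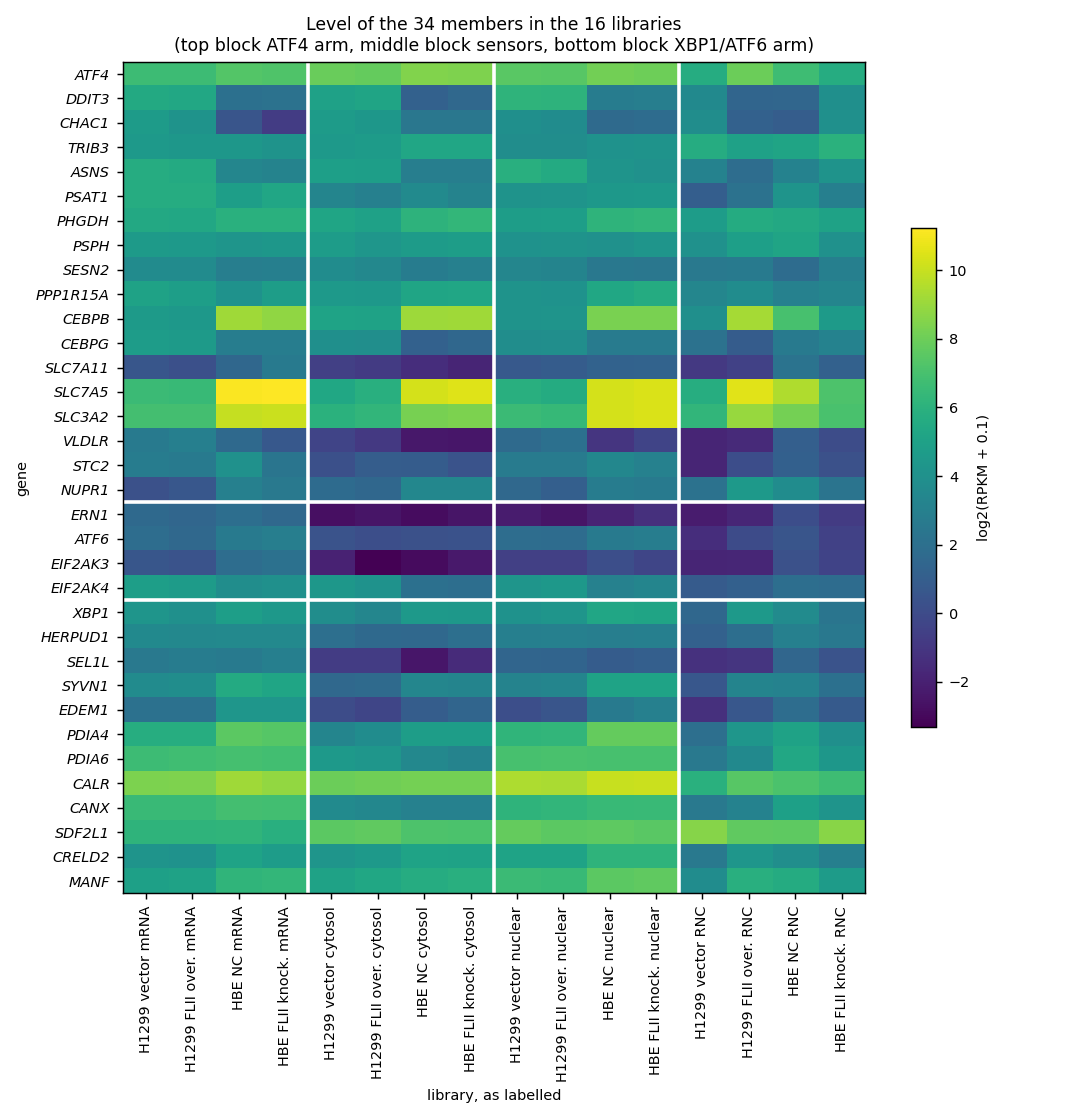
Level of each of the 34 members (rows) in each of the 16 libraries (columns), as the log2 of RPKM with a small constant added; white lines separate the arms and the fractions, and colour runs from dark (low) to yellow (high). SLC7A5, SLC3A2 and CEBPB stood high in every HBE library outside RNC, DDIT3 and CHAC1 stood low there, and in the RNC block the columns of each line differed from each other.

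Among the sensors, EIF2AK4, which senses uncharged tRNA, stood at 28.7, 25.2, 13.96 and 16.02 RPKM in mRNA, 20.98, 17.03, 4.02 and 3.75 in cytosol and 19.3, 21.2, 8.19 and 9.69 in nuclear RNA. All 6 H1299 libraries outside RNC lay above all 6 HBE libraries, although the fold reached the call only in cytosol (line folds of 0.77, 1.91 and 0.99 in mRNA, cytosol and nuclear RNA). With total counts it was called in mRNA (1.04) and nuclear RNA (1.23) too. ATF6, the membrane-bound transcription factor, had levels of 3.55, 2.95, 6.31 and 7.43 RPKM in mRNA, 1.20, 1.02, 1.10 and 1.15 in cytosol and 3.58, 3.42, 6.31 and 6.96 in nuclear RNA. It was lower in H1299 in mRNA, with a line fold of −1.10 (−1.37 to −0.83), and in nuclear RNA, with −1.06 (−1.33 to −0.79). In cytosol the interval held 0, with a fold of −0.33 (−0.86 to 0.20). With total counts ATF6 stood at −0.83 in mRNA and −0.82 in nuclear RNA and lost both calls. EIF2AK3, the ER-membrane kinase of eIF2, had 1.38, 1.21, 3.61 and 4.27 RPKM in mRNA and 0.581, 0.568, 1.03 and 0.734 in nuclear RNA, with 7, 0, 1 and 3 reads in cytosol. Its line fold was −1.65 (−2.22 to −1.13) in mRNA and −1.04 (−1.99 to −0.19) in nuclear RNA, both calls toward HBE, of which the nuclear one was lost with total counts (−0.80). ERN1, the kinase and endonuclease that splices XBP1, had 2.98, 2.72, 3.80 and 2.89 RPKM in mRNA, with a line fold of −0.61 (−1.06 to −0.19) that did not reach the threshold. In cytosol and nuclear RNA it had 1 to 10 reads in each library, too few to compare.

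ATF4 itself, the transcription factor of the arm, stood at 99.6, 99.5, 162 and 148 RPKM in mRNA, 241, 220.4, 350.2 and 335 in cytosol and 182, 173, 278 and 255 in nuclear RNA. Within each fraction both HBE libraries lay above both H1299 libraries, but the ranges over the 6 libraries of each line overlapped. Its line folds of −0.97, −1.01 and −0.85 sat at the threshold and were called only in cytosol, a call lost with total counts (−0.54).

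DDIT3, the pro-apoptotic factor CHOP, ran the other way, with 46.3, 41.7, 4.00 and 4.41 RPKM in mRNA, 31.8, 36.6, 2.15 and 2.96 in cytosol and 71.5, 67.7, 6.71 and 7.25 in nuclear RNA. The lowest H1299 library was several times the highest HBE library, and the line folds were 3.25 (2.78 to 3.78) in mRNA, 3.39 (2.68 to 4.27) in cytosol and 3.16 (2.78 to 3.59) in nuclear RNA. The gene model of DDIT3 overlaps that of MARS on the opposite strand in the GENCODE annotation, and without a stated strand setting reads of the overlap cannot be told apart. CHAC1 had 25.2, 17.4, 1.32 and 0.512 RPKM in mRNA, 24.9, 20.7, 5.42 and 5.45 in cytosol and 15.2, 13.3, 3.23 and 3.44 in nuclear RNA. Every H1299 library again lay above every HBE library, with line folds of 3.95, 1.72 and 1.97. ASNS had 50.5, 46.9, 10.00 and 8.93 RPKM in mRNA, 29.1, 27.9, 7.39 and 7.47 in cytosol and 58.1, 48.1, 18.5 and 16.1 in nuclear RNA. Its line folds were 2.07, 1.51 and 1.41, and it too was separated by line in all 12 libraries. CEBPG, a bZIP partner of ATF4, was the fourth ATF4-arm gene with all H1299 libraries above all HBE libraries (25.97, 24.3, 6.96 and 7.17 RPKM in mRNA), and was called in mRNA and cytosol (line folds 1.63, 2.32 and 0.85).

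The amino acid transporter pair stood far higher in HBE. SLC7A5 (LAT1), which imports large neutral amino acids, had 95.1, 89.7, 2273 and 2403 RPKM in mRNA, 40.96, 58.6, 1261 and 1445 in cytosol and 58.01, 50.4, 1231 and 1374 in nuclear RNA. Its line folds were −4.84 (−4.90 to −4.79), −5.41 (−5.48 to −5.34) and −4.65 (−4.72 to −4.58), the most negative of the 34 members in each of these fractions. The near-identical copies SLC7A5P1 and SLC7A5P2 can share its reads, and held at most 66 reads each outside RNC. SLC3A2, the heavy chain that carries SLC7A5 to the membrane, had 116, 117, 975 and 1067 RPKM in mRNA, 62.7, 76.3, 305 and 330.3 in cytosol and 96.6, 86.1, 1246 and 1348 in nuclear RNA. Its line folds were −3.33, −2.75 and −3.93, and the lowest HBE library lay above the highest H1299 library. CEBPB, a C/EBP factor that pairs with ATF4, had 24.6, 21.8, 567 and 454 RPKM in mRNA, 34.1, 33.1, 539 and 574 in cytosol and 17.8, 18.4, 322 and 322 in nuclear RNA. With line folds of −4.79, −4.45 and −4.42 it was as widely separated as the transporters. NUPR1, a small stress-induced chromatin protein, was low in both lines (1.11, 1.45, 8.08 and 5.84 RPKM in mRNA, with 6 to 28 reads in the H1299 libraries) and was lower in H1299 in each fraction (line folds −3.04, −2.14 and −1.43). PHGDH, the first enzyme of serine synthesis, was also higher in all 6 HBE libraries (43.7, 41.8, 60.7 and 60.3 RPKM in mRNA, 36.8, 32.1, 68.2 and 79.4 in cytosol), with line folds of −0.74, −1.36 and −1.60.

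The other ATF4-arm genes were less uniform. STC2, a secreted glycoprotein, was lower in H1299 vector than in HBE NC in mRNA and cytosol (line folds −1.49, −1.24 and −0.92). Between the FLII libraries its levels ran the other way in both fractions. H1299 FLII overexpression had 6.37 RPKM in mRNA and 1.86 in cytosol, against 4.93 and 1.22 in HBE FLII knockdown. The cystine transporter SLC7A11 was lower in mRNA alone (−1.30, 0.55 and −0.78). The lipoprotein receptor VLDLR was higher in H1299 cytosol and nuclear RNA (0.78, 2.23 and 2.79), on 2 reads in HBE NC cytosol. TRIB3, a pseudokinase that restrains ATF4, was lower in H1299 cytosol (−0.14, −1.23 and −0.55), and PPP1R15A (GADD34), which returns eIF2 to its unphosphorylated state, was lower in cytosol and nuclear RNA but had a positive fold in mRNA (0.71, −1.14 and −1.44). PSAT1 and PSPH, serine synthesis enzymes, and SESN2, a sestrin that restrains mTORC1, were called in none of the 3 fractions (line folds from −0.83 to 0.60). The arm as a whole counted 4 higher and 6 lower in mRNA, 5 and 9 in cytosol and 4 and 6 in nuclear RNA, of 18, with medians of −0.03, −0.92 and −0.66. The same medians over all genes were −0.01, 0.13 and −0.03, and with total counts the mRNA median of the arm turned to 0.23 while that of all genes became 0.25. With total counts the arm counted 5 higher and 6 lower in mRNA, 6 and 4 in cytosol and 5 and 6 in nuclear RNA. The cytosol calls of TRIB3 (−0.77), PPP1R15A (−0.68), PHGDH (−0.89) and STC2 (−0.77) were lost there.

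Of the 12 members of the XBP1/ATF6 arm, 0 were higher and 6 lower in H1299 mRNA, 1 and 6 in cytosol and 0 and 6 in nuclear RNA, with medians of −0.93, −0.90 and −0.998. With total counts these were 0 and 4, 2 and 3, and 0 and 4, with medians of −0.67, −0.43 and −0.76, and in cytosol RPKM gave 0 and 2. XBP1, the transcription factor spliced by ERN1, had 19.3, 15.5, 28.4 and 21.8 RPKM in mRNA, 14.1, 10.2, 23.1 and 21.6 in cytosol and 17.02, 19.3, 39.1 and 35.8 in nuclear RNA. HBE libraries were above H1299 libraries in each fraction, and the line folds were −0.82, −1.18 and −1.44, with the cytosol call lost under total counts (−0.72). SYVN1, the ubiquitin ligase of ER-associated degradation, had 12.9, 14.2, 47.8 and 37.6 RPKM in mRNA, 2.90, 3.202, 10.3 and 9.21 in cytosol and 8.90, 9.93, 34.1 and 34.3 in nuclear RNA. It differed by a similar fold in each fraction (−2.15, −2.29 and −2.17). Its gene model overlaps MRPL49 on the opposite strand, and that of PDIA6 overlaps ATP6V1C2, so reads of the overlaps cannot be told apart. EDEM1, which directs misfolded glycoproteins to degradation, had 4.27, 4.23, 20.3 and 20.1 RPKM in mRNA and 1.03, 1.34, 6.07 and 8.08 in nuclear RNA, with line folds of −2.51, −1.48 and −2.78. PDIA4, a protein disulfide isomerase, had 53.3, 54.5, 192 and 167 RPKM in mRNA and 72.97, 75.4, 219 and 224 in nuclear RNA, with line folds of −2.11, −1.96 and −1.83. MANF, a secreted ER stress factor, stood at 30.3, 33.1, 74.8 and 80.8 RPKM in mRNA, and CRELD2 at 18.5, 16.7, 34.7 and 26.7. Their line folds (−1.57, −1.10 and −1.17 for MANF, −1.17, −1.28 and −1.23 for CRELD2) were near the threshold, and with total counts neither was called in all 3 fractions. CALR was lower in mRNA (−1.05, −0.70 and −0.83), a call lost with total counts (−0.78). SEL1L, the scaffold of the same ligase complex as SYVN1, was the single member of the arm called higher, in cytosol, on 4 reads in HBE NC (−0.33, 1.97 and 0.25). HERPUD1, CANX, PDIA6 and SDF2L1 were not called in any of the 3 fractions.

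**Figure D2:**
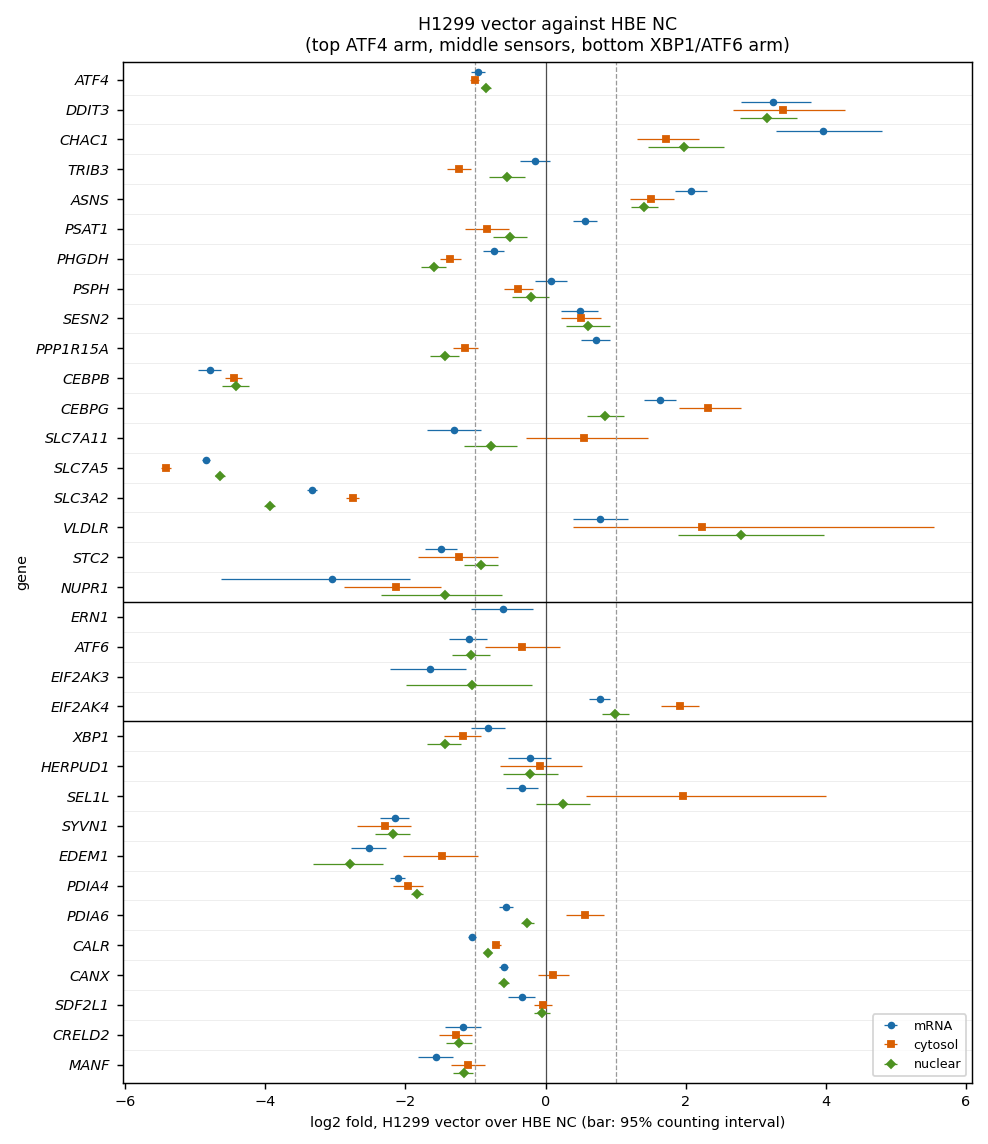
Log2 fold of H1299 vector over HBE NC for each member in mRNA (circles), cytosol (squares) and nuclear RNA (diamonds), with bars for the 95% counting interval and dashed lines at the 2-fold threshold; members with fewer than 20 reads over a pair have no point. DDIT3, CHAC1 and ASNS sit right of the upper threshold in each fraction, CEBPB, SLC7A5 and SLC3A2 far to the left, and the XBP1/ATF6 arm lies mostly left of 0.

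Over all 12 libraries outside RNC, scaled together, 5 members had every H1299 library above every HBE library (DDIT3, CHAC1, ASNS, CEBPG and EIF2AK4; 13.8% of all genes) and 7 had the reverse order (PHGDH, CEBPB, SLC7A5, SLC3A2, NUPR1, XBP1 and SYVN1; 13.4%), against 27.2% of all genes separated either way. The same 5 and 7 genes separated when the H1299 FLII overexpression cytosol library was left out. With the 3 control libraries of each line EDEM1 joined the 7, and by RPKM the counts were 6 and 6, with SESN2 added to the first and SYVN1 lost from the second. For other genes of the integrated stress response, 4 of 30 were higher (13.3%) and 7 lower (23.3%) in H1299 in all 3 fractions, against 13.1% and 13.9% of all genes. CBS, which makes cystathionine, had an mRNA line fold of 6.79 (53.1 against 0.373 RPKM), and the stress cytokine GDF15 and the mTORC1 inhibitor DDIT4 had −5.15 and −4.86. Of 24 other ER genes, DERL3 was higher (4.17%) and HYOU1 and CREB3L2 were lower (8.33%) in all 3 fractions. Both shares were below those of all genes. By single fraction, the medians of this list were −0.55, −0.28 and −0.40 in mRNA, cytosol and nuclear RNA. These lay below the all-gene medians of −0.01, 0.13 and −0.03. In mRNA 1 was higher and 6 lower of 26 (all genes 21.2% and 22.4%). In cytosol these were 2 and 2 of 24 (26.7% and 22.2%), and in nuclear RNA 1 and 4 of 26 (22.3% and 23.1%).

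Between FLII overexpression and vector in H1299 no member was called. In mRNA these were 0 of 33, where 0.798% of all genes were called (0.33% higher, 0.468% lower). In cytosol 0 of 32 were called (2.68%, 1.04% higher and 1.64% lower), and in nuclear RNA 0 of 33 (0.599%, 0.407% and 0.192%). ATF4 had 99.5 against 99.6 RPKM in mRNA, FLII library first, a fold of 0.01 (−0.09 to 0.12). DDIT3 had 41.7 against 46.3 RPKM, a fold of −0.13 (−0.35 to 0.08), and XBP1 15.5 against 19.3 RPKM, a fold of −0.30 (−0.58 to −0.03). CHAC1 had the most negative mRNA fold, −0.52 (−0.79 to −0.25), whose interval lay below 0 without reaching 2-fold, while the intervals held 0 in cytosol, −0.19 (−0.44 to 0.07), and in nuclear RNA, −0.23 (−0.58 to 0.12). In cytosol STC2 had the highest fold, 0.89 (0.34 to 1.46) on 62 against 52 reads, followed by SLC7A5 with 0.59 (0.49 to 0.69) and PDIA4 with 0.55 (0.29 to 0.80). That cytosol library also held 65.6 RPKM of epithelial markers against 4.24 RPKM in the vector cytosol library, and SLC7A5 and PDIA4 are genes with higher levels in HBE; the part of this in their folds was not tested. In such bulk RNA, the number of cells of a kind and the RNA per cell cannot be told apart. Arm medians lay between −0.09 and 0.14 for the ATF4 and XBP1/ATF6 arms in the 3 fractions.

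FLII knockdown in HBE came with 4 called members, all in mRNA and all of the ATF4 arm: 1 higher and 3 lower of 34, where 4.95% of all genes were called (2.02% higher, 2.93% lower). SLC7A11, which imports cystine for glutathione, was higher, with 6.33 against 2.79 RPKM (459 against 223 reads) and a fold of 1.05 (0.82 to 1.29). STC2 was lower, with 4.93 against 16.03 RPKM and 198 against 709 reads, a fold of −1.83 (−2.07 to −1.60). VLDLR was lower on 42 against 93 reads, with a fold of −1.13 (−1.70 to −0.60), and CHAC1 on 6 against 17 reads, with a fold of −1.42 (−3.12 to −0.08). VLDLR and CHAC1 lost the call with total counts (−0.999 and −1.30), and with RPKM the call of STC2 alone was left. None of the 4 was called in the other fractions of the same cells. SLC7A11 had folds of −0.57 (−1.80 to 0.59) in cytosol and −0.02 (−0.33 to 0.29) in nuclear RNA, and STC2 had −0.57 (−1.18 to 0.02) and −0.38 (−0.59 to −0.17). CHAC1 stood at −0.01 and 0.06, and VLDLR had 2 reads in each cytosol library and a nuclear fold of 0.85 (−0.27 to 2.13).

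The mRNA pair also differed in genes of the hypoxia response: carbonic anhydrase CA9 had a fold of −4.43 and NDRG1 one of −4.25, against −0.03 and −0.92 in cytosol and −0.24 and −0.68 in nuclear RNA. STC2 is known as a hypoxia-induced gene as well, and the part of this difference in its fold was not tested. DDIT4, which hypoxia also induces, was lower in the same pair (−1.18), as was GDF15 (−1.001), and ATF5, another ATF4-family factor, was higher (1.19), so that 1 of 28 other stress response genes was higher and 2 were lower. None of 25 other ER genes was called, where 4.95% of all genes were.

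The regulators of the arms stayed short of the threshold in the knockdown. ATF4 had 148 against 162 RPKM in mRNA, a fold of −0.26 (−0.34 to −0.18), with −0.08 in cytosol and −0.15 in nuclear RNA. DDIT3 had 4.41 against 4.00 RPKM on 39 against 39 reads, a fold of 0.01 (−0.67 to 0.69). XBP1 had 21.8 against 28.4 RPKM, a fold of −0.51 (−0.73 to −0.30), with −0.11 in cytosol and −0.16 in nuclear RNA. PPP1R15A had 27.2 against 16.8 RPKM, a fold of 0.56 (0.36 to 0.77), short of the threshold. The XBP1/ATF6 arm had no call in HBE mRNA, but 11 of its 12 folds were below 0, with a median of −0.29 against 0.01 for all genes; with total counts these were −0.16 and 0.14. The same median was −0.02 in cytosol and 0.00 in nuclear RNA. The ATF4-arm median of −0.12 turned to 0.01 with total counts. In HBE cytosol 0 of 30 members were called (1.25% of all genes, 0.625% higher and 0.625% lower), and in nuclear RNA 0 of 33 (0.873%, 0.55% and 0.323%).

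**Figure D3:**
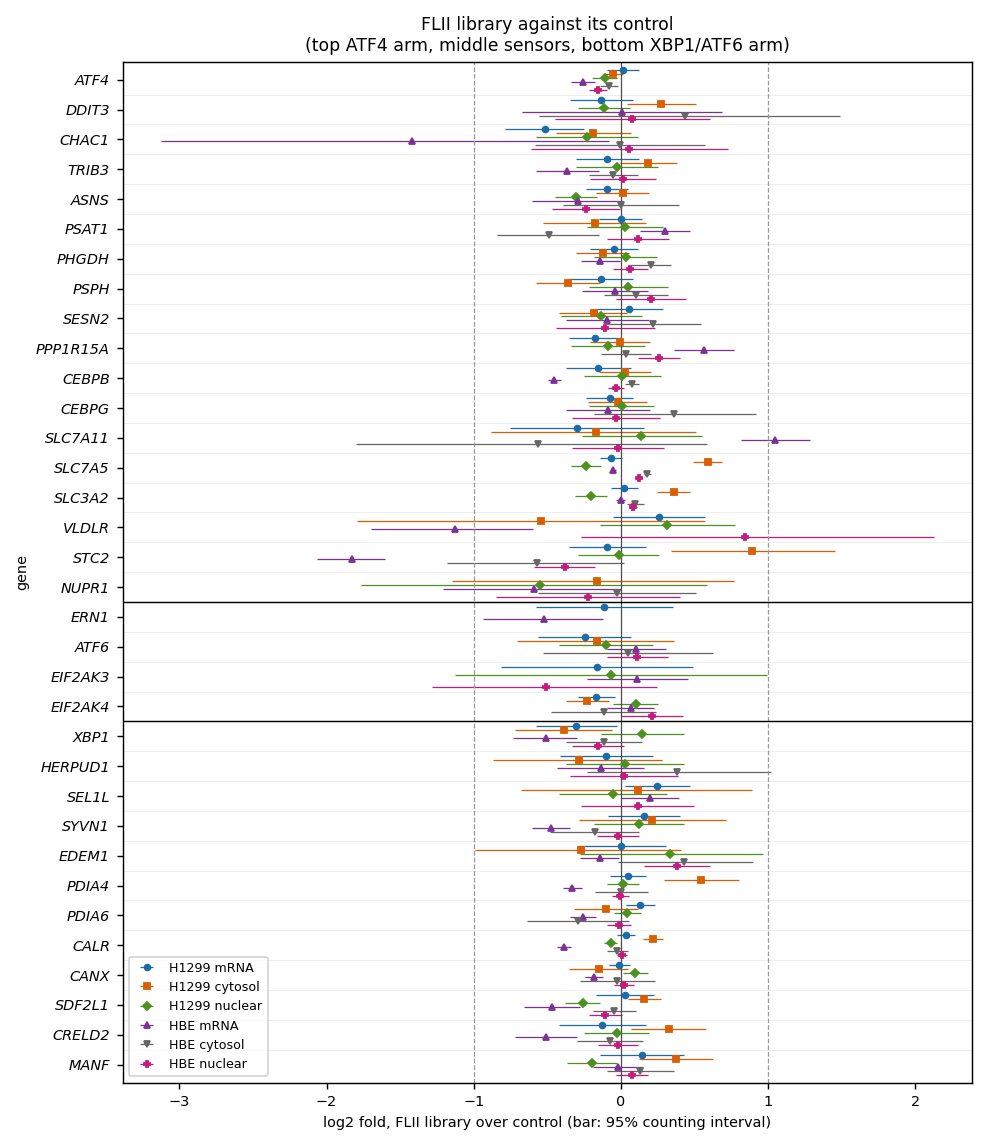
Log2 fold of the FLII library over its control for each member in the 6 pairs outside RNC, with bars for the 95% counting interval and dashed lines at the 2-fold threshold; members with fewer than 20 reads over a pair have no point. SLC7A11, VLDLR, STC2 and CHAC1 in HBE mRNA lie outside the dashed lines, and the other points lie between them.

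Nuclear and cytosolic RNA of the same cells differed in many members, more of them higher in nuclear RNA, and these were mostly genes for membrane, ER or secreted proteins. Called higher in nuclear than in cytosolic RNA were 12 of 33 members in H1299 vector (3 lower; 27.5% of all genes called), 9 of 32 in H1299 FLII overexpression (3 lower; 36.2%), 15 of 32 in HBE NC (5 lower; 39.8%) and 14 of 33 in HBE FLII knockdown (6 lower; 41.5%). Of all genes, 14.8%, 17.9%, 22.8% and 23.9% were called higher and 12.7%, 18.3%, 17% and 17.6% lower in these groups. In the XBP1/ATF6 arm 7, 5, 8 and 8 of 12 were higher and 0 lower, with medians of 1.19, 0.80, 1.24 and 1.29, against medians over all genes of 0.00, 0.05, 0.14 and 0.18. With total counts the members counted 13 higher and 0 lower in H1299 vector, 13 and 0 in H1299 FLII overexpression, 19 and 1 in HBE NC and 20 and 1 in HBE FLII knockdown. The median of all genes then moved to 0.32, 0.59, 0.66 and 0.73 in these groups, so this shift was not particular to the members. The ATF4-arm medians were −0.47, −0.69, −0.49 and −0.41, and with total counts −0.15, −0.15, 0.05 and 0.15, so that their sign flipped in HBE. The labels do not say how the fractions were separated, and the purity of the nuclear libraries was not tested.

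Called higher in nuclear RNA in all 4 groups were 8 of 31 members (SLC7A11, STC2, ATF6, SEL1L, SYVN1, PDIA4, PDIA6 and CANX), against 8.41% of all genes, and called lower in all 4 were 3 (CHAC1, TRIB3 and CEBPB), against 9.2%. The split into products was made after these values were seen: 19 members encode membrane, ER or secreted proteins, which are made on the ER, and 15 encode other proteins. Of the first class 8 of the 16 with enough reads in every group were higher in all 4 groups and 0 lower, and of the second 0 of 15 higher and 3 lower. Without the H1299 FLII overexpression group, 11 members were higher in all 3 remaining groups, with EIF2AK3, CALR and MANF added (9.81% of all genes), and the same 3 were lower (9.52%).

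PDIA6, a disulfide isomerase, was among the highest in each group, with 125, 132, 127 and 128 RPKM in nuclear and 22.04, 19.5, 10.8 and 8.94 RPKM in cytosolic RNA. Its folds were 2.18, 2.21, 3.01 and 3.28 in the order of the groups. CANX, the membrane-bound lectin chaperone, had 69.6, 76.4, 88.8 and 92.3 RPKM in nuclear and 12.4, 10.6, 8.30 and 8.25 in cytosolic RNA, with folds of 2.16, 2.30, 2.88 and 2.92. CALR, its soluble relative, had far more RNA in both (682, 666, 1022 and 1051 and 245, 271, 288 and 287 RPKM) and smaller folds of 1.15, 0.75, 1.29 and 1.32, below the threshold in H1299 FLII overexpression. PDIA4 had 9.77, 13.6, 27.5 and 27.8 RPKM in cytosol, and folds of 2.57, 1.93, 2.46 and 2.45. SYVN1 had folds of 1.28, 1.08, 1.18 and 1.34, and SEL1L, with 4 to 36 cytosol reads, 2.03, 1.75, 3.75 and 2.41. MANF followed with 1.24, 0.56, 1.32 and 1.26, and EDEM1, called in HBE alone, with −0.18, 0.33, 1.14 and 1.08. XBP1, which is a nuclear factor, had folds of −0.05, 0.37, 0.22 and 0.17 and no call, as had HERPUD1 (0.64, 0.84, 0.79 and 0.42) and CRELD2 (0.52, 0.06, 0.48 and 0.54). SDF2L1, with the shortest gene model of the 34 (874 bases), was the member of the arm without a positive fold in any group (−0.10, −0.62, −0.08 and −0.14), though these turned positive with total counts in 3 of the 4 groups.

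In the ATF4 arm the split ran between its own members. The secreted STC2 had 6.57, 6.66, 10.5 and 8.28 RPKM in nuclear and 1.05, 1.86, 1.80 and 1.22 in cytosolic RNA, with folds of 2.30, 1.29, 2.00 and 2.19. The transporter SLC7A11 had 1.60, 1.80, 2.32 and 2.34 RPKM in nuclear and 0.571, 0.481, 0.280 and 0.189 in cytosolic RNA, with folds of 1.15, 1.35, 2.48 and 3.03, and the receptor VLDLR was higher in 3 groups and had too few reads in HBE NC to compare. SLC3A2 was called higher in HBE alone (0.30, −0.37, 1.49 and 1.47), and its partner SLC7A5 was called in no group (0.17, −0.76, −0.57 and −0.63). On the other side, TRIB3 had 13.8, 13.9, 17.1 and 17.6 RPKM in nuclear and 23.4, 25.3, 39.8 and 38.8 in cytosolic RNA, with folds of −1.09, −1.41, −1.76 and −1.70. CEBPB had folds of −1.26, −1.39, −1.28 and −1.39 and CHAC1 −1.04, −1.19, −1.27 and −1.21. PSPH and NUPR1 were lower in HBE alone (PSPH −0.99, −0.69, −1.15 and −1.05; NUPR1 −0.48, −0.97, −1.17 and −1.37), and SESN2 in HBE FLII knockdown alone (−0.73, −0.78, −0.82 and −1.14). ATF4 stayed just short of the threshold in each group (−0.73, −0.89, −0.87 and −0.95), and DDIT3 had positive folds (0.84, 0.34, 1.08 and 0.72), with a call in HBE NC on 58 against 15 reads. The lower calls depended on scaling: with total counts, no member was lower in all 4 groups, though the folds of CHAC1, TRIB3 and CEBPB stayed negative, and 10 members were higher, including all 8 named above.

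The sensors ATF6 (1.24, 1.20, 1.97 and 2.04) and EIF2AK3 (called in the 3 groups with at least 20 reads, with 0 to 7 reads in cytosol) were higher in nuclear RNA, and EIF2AK4, a cytosolic kinase, was not called. The ER genes outside the members did the same, with 11 of 24 higher in all 4 groups and none lower, against 8.41% and 9.2% of all genes. The chaperones HSPA5 (3.24, 2.73, 4.07 and 4.22) and HSP90B1 (3.42, 3.40, 4.09 and 4.33) and the isomerase PDIA3 (3.55, 3.25, 3.73 and 3.69) were named by the size rule in each group. Of 27 other stress response genes, 0 were higher and 2 lower (ATF5 and EIF4EBP1). Gene length moved with these folds as well. Spearman's rho between length and the nuclear-over-cytosol fold was 0.36 to 0.53 over the members and 0.31 to 0.38 over all genes, across genes that share the same 2 libraries. The median length was 3636 bases in the first class and 2118 in the second, and the part of length in the split was not tested.

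**Figure D4:**
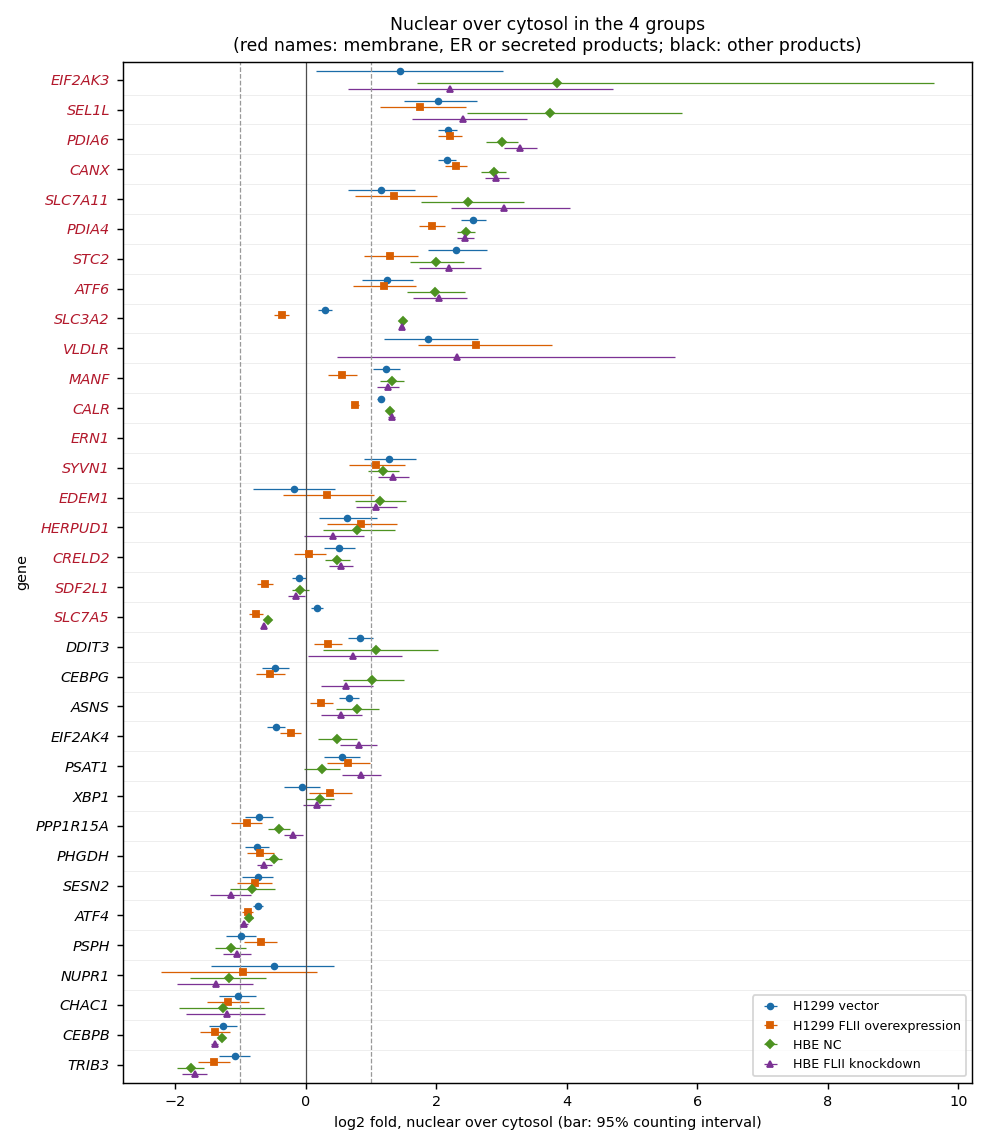
Log2 fold of nuclear over cytosolic RNA for each member in the 4 cell groups, with bars for the 95% counting interval and dashed lines at the 2-fold threshold; names in red encode membrane, ER or secreted proteins, and members with fewer than 20 reads over a pair have no point (ERN1 in any group). Most red members lie right of 0, with PDIA6, CANX and PDIA4 near or past 2, and the lowest black members, TRIB3, CEBPB and CHAC1, lie left of −1.

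The RNC libraries were deep but did not pair by label. Between the libraries labelled H1299 FLII overexpression and H1299 vector, 14 members were higher and 5 lower of 34 (49% of all genes called, 26.1% higher and 23% lower), and between those labelled HBE FLII knockdown and HBE NC 6 were higher and 4 lower of 34 (30.6%, 18.9% and 11.7%). With total counts these were 16 and 4, and 5 and 17, as the median of all genes moved to 0.27 and −0.44. In label order, DDIT3 had 11.7, 2.60, 2.68 and 14.97 RPKM and CHAC1 13.8, 2.20, 1.83 and 15.4 RPKM. The libraries labelled H1299 vector and HBE FLII knockdown were high in both genes and the other RNC libraries low. CEBPB had 15.01, 617, 125 and 24.7 RPKM, SLC7A5 54.2, 1520.0, 732 and 142 and SLC3A2 76.2, 511, 293 and 133. For these the same libraries were low, and the library labelled H1299 FLII overexpression was the highest. It was also the one with 3000 RPKM of epithelial markers, so these differences between labels cannot be told apart from a difference between lines. ATF4 itself had 51.4, 254, 103 and 52.01 RPKM and XBP1 2.80, 23.6, 13.1 and 4.90 RPKM, with the same order of highest and lowest libraries.

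**Figure D5:**
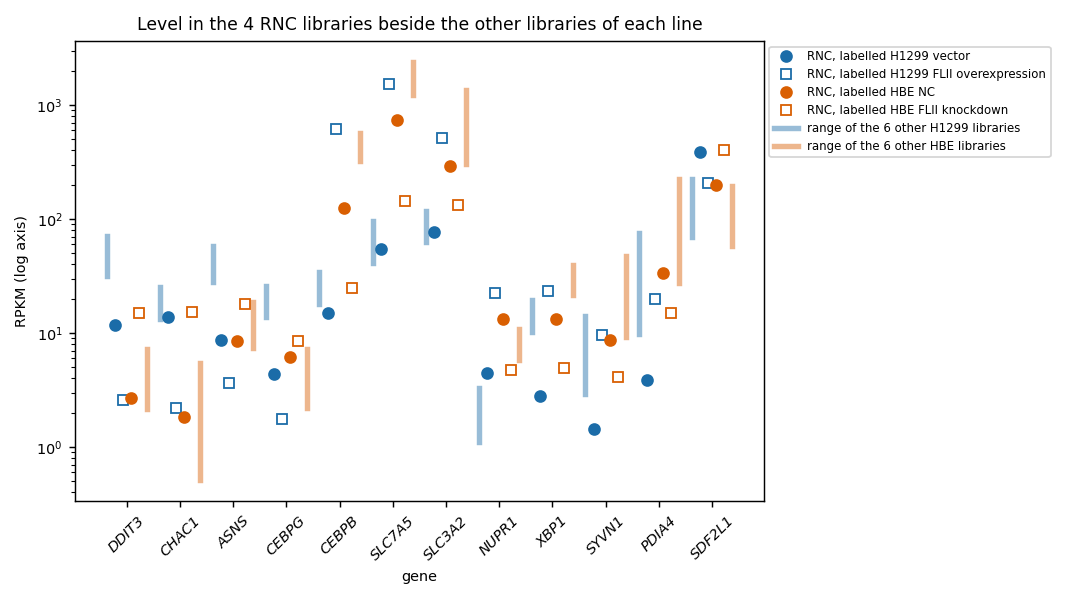
Level (RPKM, log axis) of 12 members, picked after their values were seen, in the RNC libraries by label (circles for controls, open squares for FLII libraries; blue H1299, orange HBE), beside bars for the range of the 6 other libraries of each line. The open blue squares lie near the HBE bars for CEBPB, SLC7A5 and DDIT3, and the open orange squares lie nearer the H1299 bars for CHAC1.

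RNC was set against cytosol only in the libraries labelled as controls, where the larger marker sum was that of the labelled line, with the mesenchymal sum of 208 RPKM in HBE NC as an exception. FLII did not bear out the vector label: RNC labelled H1299 vector held 89.2 RPKM and RNC labelled FLII overexpression 5.61 RPKM of it. The former had an FLII fold of 1.70 over vector cytosol. The levels were 89.2 against 70.1 RPKM, so the size of that fold rests on scaling. The folds below are therefore between labels. In H1299 vector 7 members were higher and 2 lower in RNC of 34 (40.3% of all genes called, 22.2% higher and 18.1% lower), and in HBE NC 9 and 6 (44.1%, 28.8% and 15.3%). The H1299 count rests on scaling: with total counts 2 were higher and 21 lower, as the median of all genes moved to −1.37. The 2 members higher under both scalings were TRIB3 and SDF2L1. TRIB3 had 51.1 RPKM in RNC of H1299 vector against 23.4 in cytosol and 22.3 in mRNA, a fold over cytosol of 2.48 (2.35 to 2.61). In HBE NC it had 36.0 RPKM in RNC, 39.8 in cytosol and 20.5 in mRNA, and the fold over cytosol was −0.10 (−0.23 to 0.03). SDF2L1 had 384 RPKM in RNC of H1299 vector against 190.0 in cytosol and 69.9 in mRNA, a fold over cytosol of 2.37 (2.29 to 2.44). In HBE NC these levels were 198, 141 and 73.7 RPKM, with a fold of 0.53 (0.42 to 0.64). Over mRNA, 12 members were higher and 11 lower in H1299 vector (64.3% of all genes called, 32.6% and 31.6%) and 6 and 7 in HBE NC (41.8%, 24.8% and 17%). With total counts the H1299 counts became 3 higher and 24 lower and the HBE counts 1 and 18, with all-gene medians of −2.26 and −0.88. SDF2L1 had the highest fold of the 34 members over mRNA in both groups (4.65 and 2.36; 2.46 and 1.43 with total counts), while STC2 was at −3.01 and −2.01. Longer gene models tended to have lower folds over mRNA. For the H1299 vector label, Spearman's rho with length was −0.56 among members and −0.48 among all genes. The HBE NC label gave −0.46 and −0.40. SDF2L1 has 874 bases and STC2 has 5343, and the part of length in their folds was not tested.

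Other members differed in RNC over cytosol as follows. In H1299 vector SLC7A5 (1.75), SLC3A2 (1.63), NUPR1 (1.75), ERN1 (2.29) and EIF2AK3 (1.47) were higher, and EIF2AK4 (−2.25) and STC2 (−1.15) lower. ERN1 rested on 18 RNC against 2 cytosol reads and EIF2AK3 on 32 against 7, so that both met the read minimum only through RNC. In HBE NC SEL1L (4.95), EIF2AK3 (4.75), ERN1 (4.34) and VLDLR (4.33) were higher on 1 to 4 cytosol reads each. SLC7A11 (4.02), PDIA6 (2.02), CANX (1.96), CEBPG (1.52) and HERPUD1 (1.49) were higher on 16 to 243 cytosol reads. The HBE NC RNC library held 208 RPKM of mesenchymal markers against 1.66 RPKM in HBE NC cytosol. CEBPG and VLDLR are genes with higher cytosol levels in H1299, and the part of this in their folds was not tested. Lower in HBE NC were PPP1R15A (−2.09), CEBPB (−2.06), ATF4 (−1.72), CHAC1 (−1.51), CRELD2 (−1.21) and CALR (−1.003). With mRNA as denominator, ERN1 (−2.41, called lower) and EIF2AK3 (−0.71) changed sign in H1299 vector, and the others named for it kept theirs. In HBE NC the sign changed for CHAC1 (1.39, called higher), ATF4 (0.29), SEL1L (−0.24), EIF2AK3 (−0.73) and ERN1 (−0.99), among others. It stayed the same for VLDLR, SLC7A11, CEBPG, HERPUD1, PPP1R15A and CEBPB. By label, the RNC contrast of H1299 vector with HBE NC called 7 members higher and 16 lower of 34 (58.4% of all genes, 25.6% and 32.8%), with DDIT3 (3.10) and CHAC1 (3.88) the highest and SLC7A5 (−2.77) the lowest. With total counts 2 were higher and 25 lower, as the median of all genes moved to −1.22.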

How the data were processed

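RNA of H1299 and HBE cells was sequenced as 16 libraries, grouped by their titles, with 1 library per group. Per the file headers, the authors deposited for each RefSeq gene its length, a read count with splice variants merged, and an RPKM. The build is GRCh37 (hg19), per the submitters' processing notes; the aligner and the counter were not given in the sources used here. RefSeq promoters were of GRCh38.p14, so no coordinates of the counted genes are given. The totals of 5914489 to 38514467 reads set the counting error.

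From the deposited counts each pair of libraries was scaled with TMM (edgeR 4.0.16, R 4.3.3) over all genes, 0.5 reads were added, a minimum of 20 reads over the pair was set, and the exact conditional binomial (Clopper-Pearson, scipy 1.17.1) 95% interval was taken. PCR duplicates cannot be seen in counts. Calls were also run on simulated counts with counting noise alone, scaled to library totals, with planted folds well above the threshold. Such counts hold no variation between preparations, so they could not check calls near the threshold or the TMM scaling. Alternatives were size factors by DESeq2 1.42.0 (median of ratios), scaling to total counts, a minimum of 1 or of 100 reads, 5 reads added, the deposited RPKM with 1 added, the FLII libraries in place of the controls between lines, mRNA as denominator of RNC, and 3 control libraries of each line; leaving out the H1299 FLII overexpression cytosol library or group, and RPKM for the order of the lines, were added after seeing the data. Members, lists, the 32 other stress response and 26 other ER genes and the motifs were chosen with earlier results of these data known. Named with levels per library were ATF4, DDIT3, XBP1, the sensors, and members called in a FLII pair, between the lines in all 3 fractions, or in nuclear over cytosol in 2 or more groups; of the other lists, up to 3 called genes by the interval bound nearest 0. The 12 genes of the RNC plot, CA9, NDRG1, and the genes singled out by extremes were chosen after their values were seen.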

Additional observations from a re-analysis of the deposited data

Results flagged for a closer look

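Between nuclear and cytosolic RNA, 2 members moved in opposite directions in the lines, and the difference itself was not tested. CEBPG stood at −0.46 in H1299 vector and −0.54 in H1299 FLII overexpression, as log2 folds, against 1.02 in HBE NC and 0.62 in HBE FLII knockdown. With total counts these were −0.13, 0.00, 1.56 and 1.18, so that the second was no longer negative, and 49 and 71 reads stood behind the HBE cytosol values. EIF2AK4 had −0.45 and −0.23 in H1299 against 0.49 and 0.81 in HBE, and −0.12, 0.31, 1.02 and 1.37 with total counts, where the second H1299 value changed sign.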

How the results depend on the processing

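Of 145 counts of members called, pooled over the alternatives, 134 stayed within 1.5 times the reported count. With total counts 5 of 22 moved and with RPKM 5 of 24. Of 647 values of called single genes, each a gene under 1 alternative, 53 lost the call and none reversed. These covered calls in the FLII pairs outside RNC, between the lines in all 3 fractions, and in nuclear over cytosol in 2 or more groups. Line calls in fewer fractions and calls of RNC over cytosol were not among them. There, mRNA as denominator turned ERN1 in H1299 vector RNC from 2.29 to −2.41 and CHAC1 in HBE NC RNC from −1.51 to 1.39. Most losses came from scaling, with 21 of 104 lost under total counts and 27 of 101 under RPKM. Values below the minimum of an alternative were left out. Scaling to total counts put the all-gene median at 0.14 in the HBE mRNA pair, at 0.25, 0.60 and 0.21 between the lines in mRNA, cytosol and nuclear RNA and −1.22 in RNC, at 0.32 to 0.73 in nuclear over cytosol, and at −1.37 and 0.25 in RNC over cytosol. With total counts, 2 members in place of 4 were called in the HBE mRNA pair, 22 in place of 10 (5 higher, 17 lower) in the HBE RNC pair, and 23 in place of 9 in RNC over cytosol of H1299 vector. No member was then lower in nuclear over cytosol in all 4 groups (0 in place of 3, also 0 with RPKM), and 6 in place of 3 were higher in H1299 in all 3 fractions, with CEBPG, VLDLR and EIF2AK4 added. With RPKM, 1 member was called in the HBE mRNA pair, 11 in place of 22 between the lines in cytosol, 17 in RNC over cytosol of H1299 vector, and 5 in place of 9 were lower in H1299 in all 3 fractions. With mRNA as denominator, 23 were called in RNC of H1299 vector (12 higher, 11 lower). The cause was not tested for these, beyond the shift of the median that each scaling makes. Of 226 arm medians, 50 moved, among them 21 of 36 with total counts and 19 of 36 with RPKM. No paired analysis was possible because the labels carry no replicate numbers and each group has 1 library, which also left no replicate to leave out. Fewer than 20 reads kept ERN1, EIF2AK3, VLDLR, SEL1L and NUPR1 out of some comparisons.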
